A study of Rattus norvegicus with 24 samples.

Results

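The livers of rats given TCDD at 1 µg/kg were compared with those of rats given sesame oil vehicle. The members were chosen by the dose label, which gives 3 libraries at 1 µg/kg and 3 of vehicle among the 24 of the series. All were female Sprague-Dawley rats, an outbred stock, aged 57 days by the labels, and the series calls the 3 libraries of a group biological replicates. Dosing was by gavage, once every 4 days, with TCDD in sesame oil at 1 µg/kg or with the oil alone in vehicle rats. The livers were those of day 28. Rats of 6 further dose groups, between 0.01 and 10 µg/kg, served here to estimate the spread between rats. The comparison asks which hepatic genes change at 1 µg/kg and how far its first replicate stands from the other 2.

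TCDD (2,3,7,8-tetrachlorodibenzo-p-dioxin) is a persistent chlorinated dioxin that binds the aryl hydrocarbon receptor, a ligand-activated transcription factor. The bound receptor enters the nucleus, pairs with its partner ARNT and raises transcription of genes of foreign-compound metabolism, such as cytochrome P450 genes. In rodents the liver is a main site of this response and of dioxin toxicity.

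Each library gave a raw read count for each of 26404 Ensembl IDs. None of them could be paired with a gene name from the sources used here, so the genes are described by their levels, and 2 IDs that rose and 2 that fell are given in full. The liver origin could not be set against marker genes for the same reason. Gene counts per library were 12790139 to 14460674 at 1 µg/kg and 11866339 to 13522274 in vehicle. Replicate 1 of 1 µg/kg stood apart from replicates 2 and 3 in the expression of many genes. Vehicle replicate 1 did so from its own group in fewer genes, as described further on. Counts of calls are given with and without each.

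Livers at 1 µg/kg had 212 genes above their vehicle level and 52 below it, together 264 of the 12496 genes tested, or 2.11% (1.7% higher and 0.416% lower). The calls, named rises and falls from here on, were those of edgeR's quasi-likelihood test with an adjusted p under 0.05. The rises were larger than the falls. Among the rises, 114 reached 2-fold, 44 reached 4-fold and 15 reached 16-fold, whereas 10 of the 52 falls reached 2-fold, 4 reached 4-fold and none reached 8-fold. Several of the 15 had a vehicle mean under 0.254 CPM, or 3 counts in the shallowest vehicle library. Their fold size is therefore uncertain. The vehicle mean was below 1 CPM in 32 rises and in none of the falls, so the 2 directions are not compared on equal terms. On the log2 scale the median change was 1.11 for rises, -0.68 for falls and -0.01 over all genes tested. The quartiles of the rises were 0.82 and 1.66, and the largest rise was 9.47. The called falls ran from -2.75 to -0.41.

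The rises and the falls differed in how many counts the genes drew, a level that is not adjusted for transcript length. The median level of the genes that rose was 23.9 CPM (counts scaled to a common library size) at 1 µg/kg and 8.80 CPM in vehicle. The genes that fell had a median of 23.9 CPM at 1 µg/kg and 39.0 CPM in vehicle. In vehicle livers, 15.1% of the rises and none of the falls lay below 1 CPM, against 10.5% of all genes tested. Above 100 CPM in vehicle were 22 of the 212 rises (10.4%), 13 of the 52 falls and 8.31% of all genes tested. A fall cannot be measured in a gene with no vehicle counts. In 207 of the 212 rises every 1 µg/kg library lay above every vehicle library, and in 51 of the 52 falls every one lay below. Over all genes tested, 10.7% showed such a separation upward and 8.69% downward. The calls were made on the same libraries, so nothing is read from the difference.

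**Figure D1:**
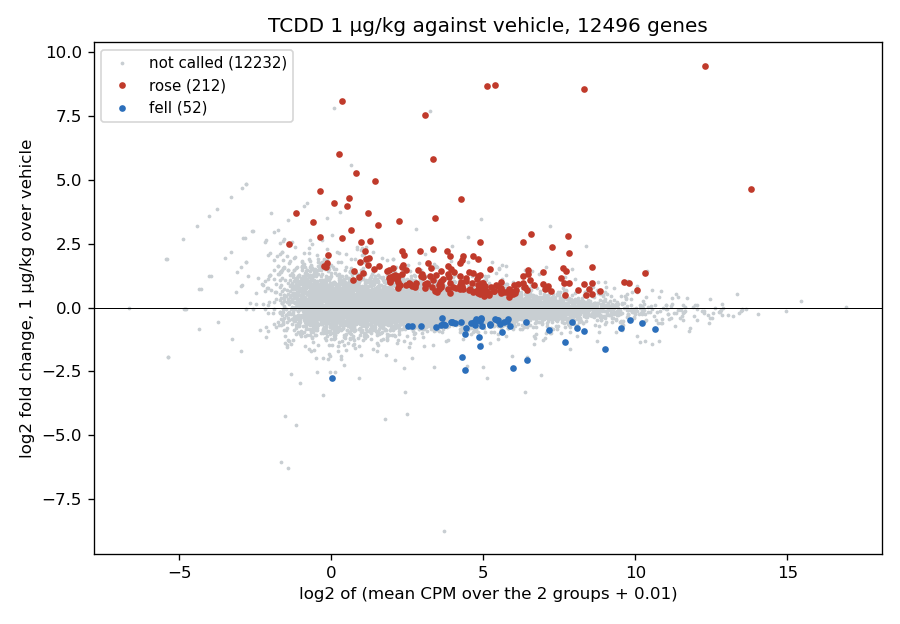
Each point is 1 of the 12496 genes tested, with its abundance on the x axis (log2 of mean CPM over both groups + 0.01) and the fitted log2 fold change of 1 µg/kg over vehicle on the y axis. The 212 genes that rose (red) reach up to 9.47, while the 52 genes that fell (blue) do not pass -2.75.

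A few genes carried most of the added counts. Together the 212 rises made up 5.40% ± 0.172 of gene counts at 1 µg/kg and 0.958% ± 0.0494 in vehicle (SD, n = 3 each). One ID, the eighth in order of fold change among those eligible to be named, accounted for 56.8% of the CPM gained by all rises. It held 28109, 28171 and 25228 CPM at 1 µg/kg, against 1561, 866 and 844 CPM in vehicle (4.64 on the log2 scale with an SE of 0.275; adjusted p = 1.10e-09, edgeR). With ENSRNOG00000019500 added the share was 78.5%, and 10 genes made up 87.9%. The falls took 0.519% ± 0.0433 of gene counts at 1 µg/kg and 0.910% ± 0.0263 in vehicle (SD, n = 3 each). The largest single loss, to 1140 ± 67.2 CPM at 1 µg/kg against 2034 ± 224 CPM in vehicle (SD, n = 3 each), was 22.2% of the CPM lost by all falls, and 10 genes made up 82.6% (-0.84 on the log2 scale with an SE of 0.147; adjusted p = 0.00398, edgeR). In bulk liver, fewer cells of a type and less RNA per cell cannot be told apart.

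ENSRNOG00000019500 had the largest rise among the 176 rises eligible to be named, which had at least 5 CPM at 1 µg/kg and no overlap with vehicle. Its level was 10661, 10115 and 9095 CPM in replicates 1, 2 and 3 of 1 µg/kg, against 19.1, 11.4 and 11.5 CPM in vehicle. All 3 treated livers were far above the highest vehicle liver, and replicate 1 was the highest of them. The ratio of the group means was 712 (9.47 on the log2 scale with an SE of 0.616; adjusted p = 4.23e-09, edgeR). It was called against vehicle at each of the 7 doses. Its mean was 323 ± 229 CPM at 0.01 µg/kg, 1067 ± 424 at 0.03, 3128 ± 481 at 0.1, 4672 ± 1508 at 0.3, 9957 ± 795 at 1, 12305 ± 472 at 3 and 9937 ± 734 at 10 µg/kg (SD, n = 3 each). Neither step next to 1 µg/kg passed the test (1 against 0.3 µg/kg, log2 fold change 1.09, SE 0.430, edgeR adjusted p = 0.762; 3 against 1 µg/kg, 0.31, SE 0.425, edgeR adjusted p = 0.856).

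ENSRNOG00000026679 changed in another way with dose. It held 54.4, 111 and 81.8 CPM at 1 µg/kg, against 0.0772, 0.160 and 0.339 CPM in vehicle. Those vehicle values rest on 1, 2 and 4 counts, and the treated ones on 751, 1403 and 1027. The groups did not overlap, and replicate 1 was the lowest treated liver. The fitted log2 fold change was 8.70 (SE 0.603; edgeR adjusted p = 9.80e-09), and it was 9.34 without vehicle replicate 3, which held 4 of the 7 vehicle counts. Set against 3 counts in the shallowest vehicle library, or 0.254 CPM, the mean at 1 µg/kg was 324 times higher. At 0.01 and 0.03 µg/kg the means, 0.102 and 0.162 CPM, were near the vehicle level and under the floor of 3 counts. The gene stood at 1.09 ± 1.09 CPM at 0.1 µg/kg, 6.89 ± 3.25 at 0.3, 82.3 ± 28.2 at 1, 189 ± 48.7 at 3 and 170 ± 38.7 at 10 µg/kg (SD, n = 3 each), and 0.3 µg/kg was the lowest dose at which it was called against vehicle. The step from 0.3 to 1 µg/kg passed the test (3.58 on the log2 scale with an SE of 0.401; adjusted p = 7.15e-05, edgeR). That from 1 to 3 µg/kg did not (1.20 on the log2 scale with an SE of 0.355; adjusted p = 0.252, edgeR).

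The remaining 13 of the 15 largest eligible rises had log2 fold changes from 2.59 to 8.67. The third in this order stood at 38.5, 88.8 and 81.3 CPM at 1 µg/kg, against 0.154, 0.160 and 0.169 CPM in vehicle. Those vehicle values are under the floor of 3 counts. The fifth and seventh averaged 0.0797 and 0.162 CPM in vehicle, and each had a vehicle library without a count. The size of these 3 rises is therefore uncertain. The fourth stood at 532, 633 and 743 CPM at 1 µg/kg, against 1.78, 1.69 and 1.52 CPM in vehicle. The ninth differed most among treated livers, with 8.70 CPM in replicate 1 and 57.9 and 42.1 CPM in replicates 2 and 3, against 0.540, 2.41 and 2.79 CPM in vehicle. The sixth went the other way, at 33.9 CPM in replicate 1 and 14.0 and 12.0 CPM in replicates 2 and 3, against 0.540, 0.321 and 0.169 CPM in vehicle.

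ENSRNOG00000020467 had the largest fall among the 50 falls eligible to be named, which had at least 5 CPM in vehicle and no overlap. It held 9.06, 3.24 and 7.17 CPM at 1 µg/kg, against 20.8, 38.1 and 46.8 CPM in vehicle. Every treated liver was below the lowest vehicle liver, which was replicate 1. The log2 fold change was -2.43 (SE 0.551; edgeR adjusted p = 0.0246). The call is lost without 1 µg/kg replicate 2 (edgeR adjusted p = 0.147) or 3 (0.0899), without vehicle replicate 2 (0.0845) or 3 (0.0506), and when only these 2 groups were fitted (0.0669). Without both libraries numbered 1 the log2 fold change was -3.03. The levels did not follow the dose evenly, since the mean was 19.5 ± 4.47 CPM at 0.3 µg/kg but 7.75 ± 2.47 CPM at 0.03 µg/kg (SD, n = 3 each). Neither of these doses was called against vehicle (edgeR adjusted p = 0.460 and 0.287). At 3 and 10 µg/kg the means were 2.62 and 1.43 CPM, and both doses were called.

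ENSRNOG00000010079 held 9.86, 15.0 and 36.3 CPM at 1 µg/kg, against 40.3, 135 and 140 CPM in vehicle. Replicate 1 was the lowest liver in both groups, and the highest treated liver lay just below the lowest vehicle liver. The log2 fold change was -2.37 (SE 0.556; edgeR adjusted p = 0.0295), and -3.08 without 1 µg/kg replicate 3. The call is lost without 1 µg/kg replicate 1 (edgeR adjusted p = 0.0629) or 2 (0.159), without vehicle replicate 2 (0.124) or 3 (0.0590), and when only these 2 groups were fitted (0.158). From 1 to 3 µg/kg the gene fell further, to 2.44 ± 1.09 CPM at 3 µg/kg against 20.4 ± 14.0 CPM at 1 µg/kg (SD, n = 3 each; -3.08 on the log2 scale with an SE of 0.638; adjusted p = 0.0332, edgeR). The other 8 of the 10 largest eligible falls had log2 fold changes from -2.05 to -0.94.

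**Figure D2:**
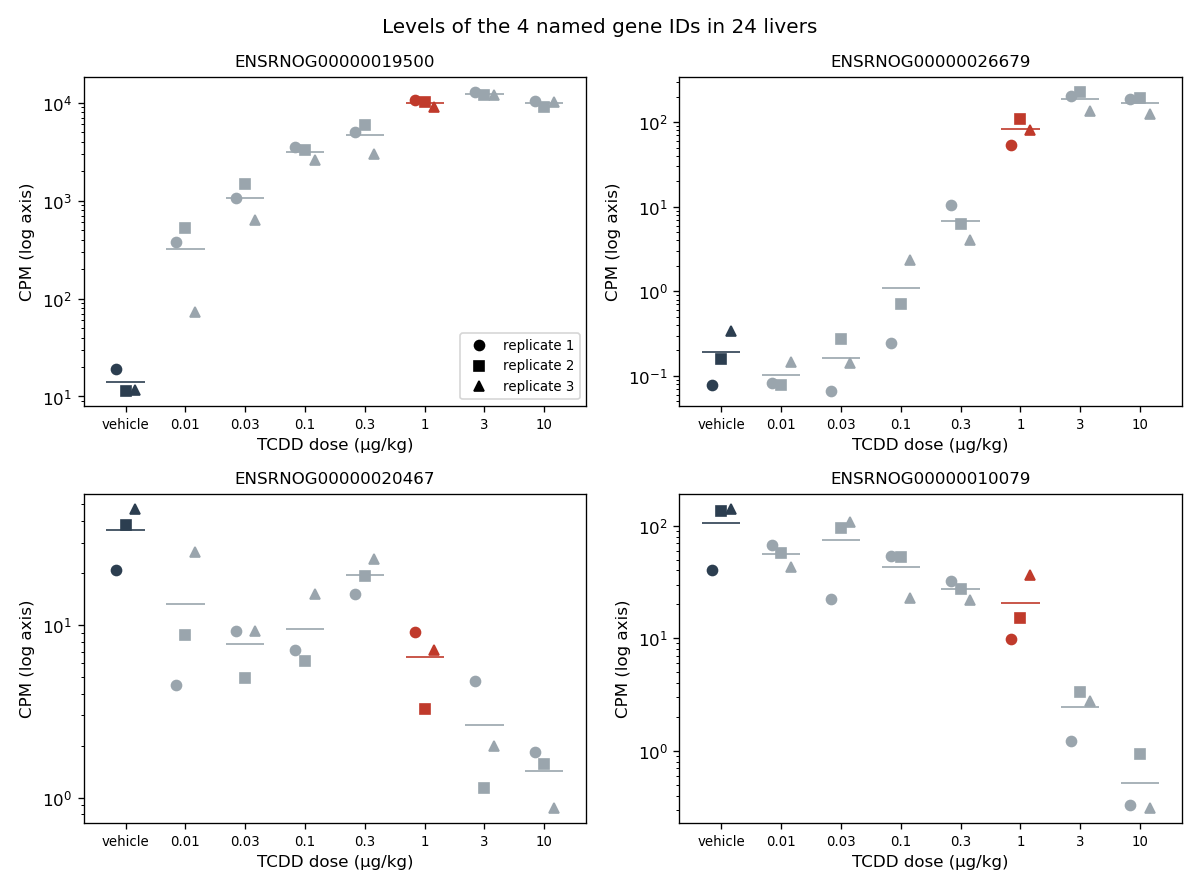
CPM on a log axis for the 4 named IDs in every library, by TCDD dose, with 1 µg/kg in red and vehicle in dark blue; marker shapes give the replicate number and horizontal lines the group means. ENSRNOG00000019500 is far above vehicle at every dose, while ENSRNOG00000026679 has 6.89 CPM on average at 0.3 µg/kg and 82.3 CPM at 1 µg/kg.

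Few genes were called between 1 µg/kg and its neighbouring doses. Against 0.3 µg/kg, 7 genes were higher and none lower at 1 µg/kg (0.056% of genes tested), with a median log2 fold change of 2.63. By edgeR 721 genes had an unadjusted p below 0.05 there, and DESeq2 called 30 higher and 2 lower. Without 1 µg/kg replicate 1, 13 genes were called, and without 1 µg/kg replicate 3 or 0.3 µg/kg replicate 3, 4 were. All 7 of the reported genes were among the 212 rises against vehicle. At 3 against 1 µg/kg, 18 genes were higher and 21 lower (0.312%), with median log2 fold changes of 2.19 and -1.43. Of these, 8 of the higher and 5 of the lower genes were among those called in the same direction at 1 µg/kg against vehicle. These comparisons share the 1 µg/kg libraries with the main one. The count of 39 was 8 without 1 µg/kg replicate 2, 12 without replicate 3, and 18, 13 and 24 without 3 µg/kg replicates 1, 2 and 3.

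The 3 against 0.3 µg/kg libraries share no rat with 1 µg/kg or vehicle, and so measure the called genes in other livers. Those livers entered the calls through the low-count filter, the scaling and the estimate of each gene's spread, but not through the group means compared. Both tests use that estimate, so a gene with little spread passes both more easily. The counts that passed are therefore not independent of the calls. Of the 212 rises, 182 (85.8%) were above 0 on the log2 scale at 3 against 0.3 µg/kg, against 51.2% of all genes tested, and the median was 0.32 against 0.01. There 43 of the 212 passed the test as higher, where 0.768% of all genes did, and none passed as lower. Of the 52 falls, 45 (86.5%) were below 0, with a median of -0.30, and 12 passed as lower, where 0.64% of all genes did. The share of gene counts taken by the 212 rises was 1.22% ± 0.123 at 0.01 µg/kg, 1.53% ± 0.114 at 0.03, 2.24% ± 0.0873 at 0.1, 3.08% ± 0.337 at 0.3, 5.40% ± 0.172 at 1, 6.57% ± 0.266 at 3 and 7.17% ± 0.0739 at 10 µg/kg (SD, n = 3 each). For the 52 falls it was 0.682% ± 0.0515 at 0.3 µg/kg and 0.469% ± 0.0119 at 3 µg/kg (SD, n = 3 each).

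The number of calls depended on single livers, and the falls more than the rises. Without 1 µg/kg replicate 1 it was 543, and without replicates 2 and 3 it was 68 and 100. Leaving out vehicle replicate 1 gave 110 and vehicle replicate 2 gave 66, while vehicle replicate 3 gave 375. Over these 6 omissions the rises numbered 59 to 405 and the falls 4 to 138. With both libraries numbered 1 left out, a choice made after the data were seen, 197 genes were called. Of the 264 reported calls, 226 (85.6%) were also called without 1 µg/kg replicate 1, but 68 (25.8%) without replicate 2 and 99 (37.5%) without replicate 3. No reported call changed its sign in any of these fits. They share most libraries with the fit that made the calls, so nothing is read from this. Most calls lay close to the threshold, with an adjusted p above 0.01 for 185 of the 264, and another 373 genes had one between 0.05 and 0.10.

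Replicate 1 of 1 µg/kg was the library furthest from the mean of its 2 companions among all 24. Its root mean square log2 CPM difference to the mean of the other 2 livers was 0.624, against 0.467 for replicate 2 and 0.433 for replicate 3. The other 21 libraries ran from 0.416 to 0.606, and the next highest was vehicle replicate 1. Replicates 2 and 3 were closer to each other than any other pair of the series, at 0.433, while replicate 1 was 0.676 from replicate 2 and 0.645 from replicate 3. The distance to a mean of 2 livers is larger where those 2 are alike. Taken pair by pair, vehicle replicate 1 was 0.629 and 0.699 from its companions, and 3 µg/kg replicate 2 was 0.696 and 0.622 from its own. By single pairs replicate 1 of 1 µg/kg was thus not clearly the furthest. Differences between replicates were beyond counting noise in every pair of both groups, with chi-square values per degree of freedom of 13.0 to 50.5 at 1 µg/kg and 28.7 to 53.1 in vehicle. On the leading axis of a principal component analysis (31.6% of the variance in log2 CPM), replicate 1 lay at -2.39 and replicates 2 and 3 at 17.4 and 14.3. Vehicle lay between -35.9 and -22.5, 0.3 µg/kg between -8.79 and -5.89 and 3 µg/kg between 26.1 and 28.8. On the second axis (13.8% of the variance) the gap was wider, with replicate 1 at 17.0 and replicates 2 and 3 at -22.8 and -21.3. That axis also split vehicle replicate 1 (4.95) from vehicle replicates 2 and 3 (-33.3 and -38.8). It likewise split 0.3 µg/kg replicate 3 (-25.8) from 0.3 µg/kg replicates 1 and 2 (22.6 and 20.3). Livers also lay on both sides of 0 at 0.01, 0.03, 0.1 (13.7, 16.4 and -18.3) and 10 µg/kg (14.6, -16.5 and -20.3). Only those of 3 µg/kg were all above 0, from 9.27 to 35.4. A split on this axis was thus not particular to 1 µg/kg and vehicle. Over all genes tested, the root mean square distance of replicate 1 to the group mean was 0.455 for 0.3 µg/kg, 0.503 for 3 µg/kg and 0.580 for vehicle, and replicates 2 and 3 were further from each of these. To 10 µg/kg replicate 1 was the furthest of the 3, at 0.782 against 0.681 and 0.677 for replicates 2 and 3.

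In 277 genes replicate 1 lay more than 2-fold above both other 1 µg/kg livers and in 460 more than 2-fold below both, 737 in all. The same counts over both directions were 173 for replicate 2 and 164 for replicate 3. Over the remaining 21 libraries they ran from 140 to 651, and vehicle replicate 1 had 575. These counts, too, depend on how alike the other 2 livers of a group are. Replicate 1 had the deepest library of the 3, at 14460674 gene counts. Its share of alignments that were not unique was 23.6%, against 22.1% and 21.4% in replicates 2 and 3, and its share outside annotated genes 13.3%, against 14.3% and 14.9%. The part of depth and of these shares in the difference was not tested, and the labels name no batch.

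**Figure D3:**
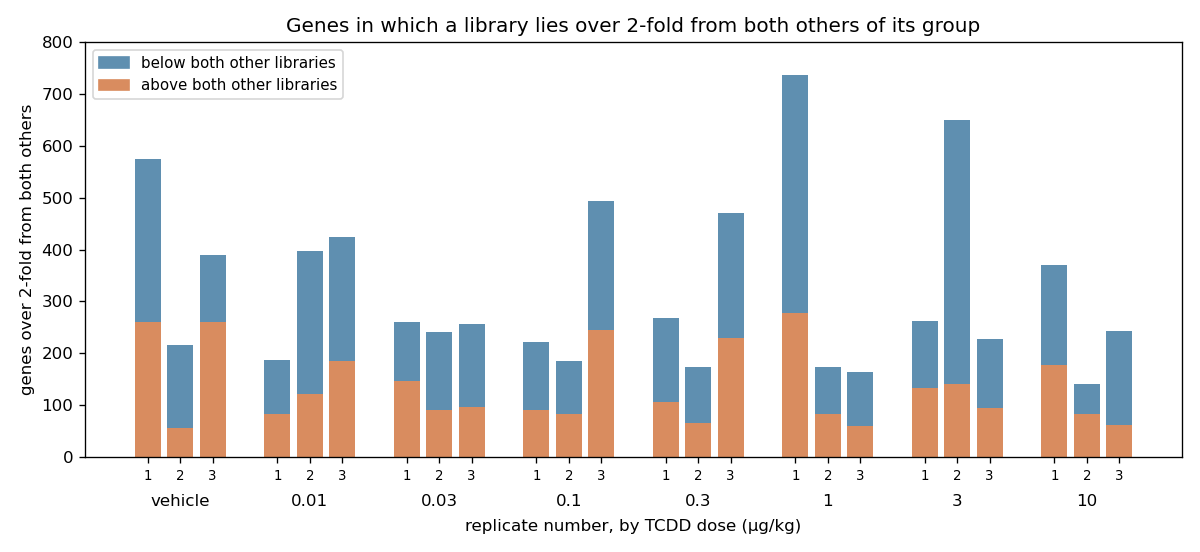
Bars give, for each of the 24 libraries, how many of the 12496 genes lay over 2-fold above (orange) or below (blue) both other libraries of the same group, ordered by dose and replicate number. The highest bar, 737 genes, is 1 µg/kg replicate 1, and its 2 companions at 173 and 164 are among the lowest 4.

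The called genes showed the same order of livers. The median log2 difference to the vehicle mean over the 212 rises was 0.86 in replicate 1, 1.22 in replicate 2 and 1.16 in replicate 3. Replicate 1 was the lowest of the treated livers in 137 rises (64.6%) and the highest in 40 (18.9%); over all genes tested it was the lowest in 39.5% and the highest in 41.2%. In 5 rises and 1 fall its level was within the range of the vehicle livers, which was so for none of the calls in replicates 2 and 3. Of all 12496 genes tested, 5826, 4929 and 5250 were within that range in replicates 1, 2 and 3. The calls were made on the same livers, so nothing is read from the difference. Over the 52 falls the medians were -0.60, -0.70 and -0.69 in replicates 1, 2 and 3. The genes with the most counts did not show this order, since ENSRNOG00000019500 was highest in replicate 1 and the rises together took 5.40%, 5.57% and 5.22% of gene counts in replicates 1, 2 and 3.

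**Figure D4:**
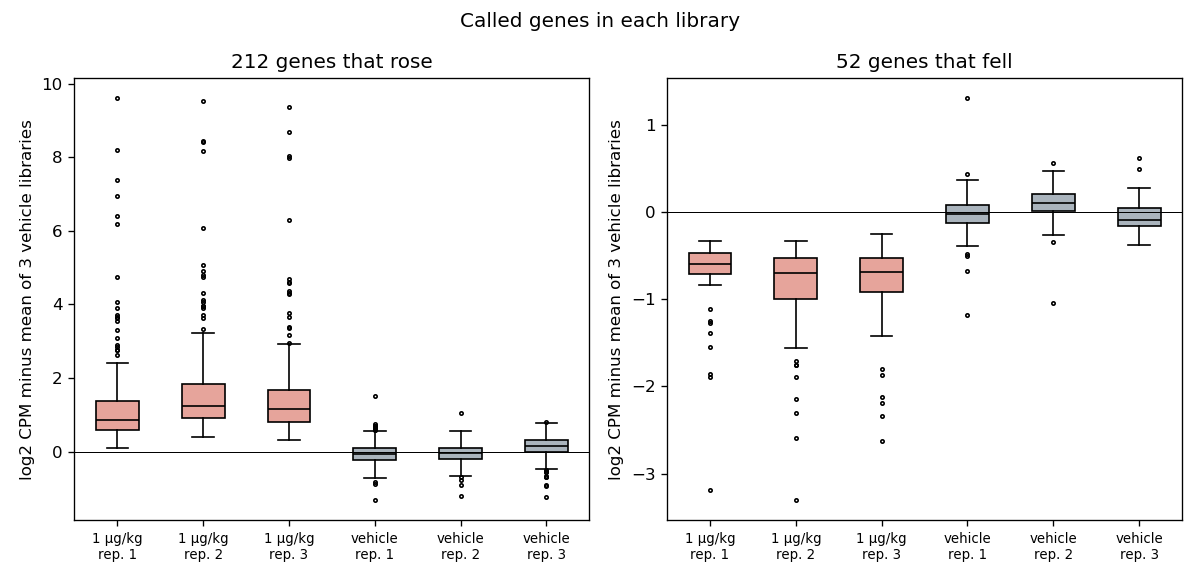
Boxes give the log2 CPM of each library minus the mean of the 3 vehicle libraries, over the 212 rises (left) and the 52 falls (right); boxes span the quartiles, the line is the median, whiskers reach 1.5 times the box length and points lie beyond. The median over the rises is 0.86 in 1 µg/kg replicate 1, below 1.22 and 1.16 in replicates 2 and 3.

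A liver that took no part in a call gives its own measure. When replicate 1 was left out, 405 genes rose in the fit of the other 2, and 402 of these were also among the 12496 genes tested with all libraries. Over these, the median log2 difference to the vehicle mean was 0.47 in replicate 1 and 1.16 in the 2 livers used, or 41.0% of it. Replicate 1 was above every vehicle liver in 287 of the 402 (71.4%) and below the vehicle mean in 36 (8.96%). Over all genes tested it was above every vehicle liver in 27.6%. The vehicle livers also took part in choosing the 402 genes, which raises the share, so nothing is read from the difference. Over the 138 genes that fell it had a median of -0.26, against -0.80 in the 2 livers used. For lists of equal size, the 64 rises of lowest p in each fit, the liver left out had a median of 1.06 against 1.70 for replicate 1, 1.76 against 1.82 for replicate 2 and 1.56 against 1.69 for replicate 3. Replicate 1 was above every vehicle liver in 57 of its 64 genes, and replicates 2 and 3 in all 64 of theirs. The vehicle libraries are shared by the 3 fits and took part in choosing each list, which raises these counts. The lists also differ in kind, since the 64 for replicate 2 are all the rises of that fit, and those for replicate 1 were taken from 402. With replicate 2 or 3 left out, the pair used holds replicate 1 and the closest companion of the liver left out. The 3 livers were therefore not measured on equal terms.

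The 737 genes in which replicate 1 stood apart varied widely in the rest of the series too. Called against vehicle were 4 of the 277 genes above both others (3 rises and 1 fall) and 15 of the 460 below both, all of them rises. Over all genes tested, 1.7% were called as rises and 0.416% as falls. The 737 genes were chosen by a gap within 1 of the groups compared, so nothing is read from these counts. Of the 277 genes, 156 (56.3%) were among the 1250 genes of highest SD within the other 7 groups, and of the 460 genes 196 (42.6%). Those 1250 genes are 10.0% of all genes tested. The median SD within those groups was 0.65 and 0.55 log2 units, against 0.29 over all genes tested. Replicate 1 lay below every vehicle liver in 60.9% of the 460 genes, against 25.7% of all genes tested, and above every vehicle liver in 57.8% of the 277, against 27.6%. Replicates 2 and 3 both lay above every vehicle liver in 62.4% of the 460 genes, against 20.9% of all, and both below in 48.4% of the 277, against 20.2%. The choice of genes by the gap between these livers moves each share this way, so nothing is read from the differences.

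The same genes also set vehicle replicate 1 apart, in livers that took no part in choosing them. Its median log2 deviation from the vehicle mean was 0.47 over the 277 genes and -0.31 over the 460. It was the highest vehicle liver in 70.0% of the 277 genes and the lowest in 60.7% of the 460, against 34.7% and 38.2% of all genes tested. Among the other groups, 10 µg/kg replicate 1 came next over the 277 genes at 0.34, and the lowest value over the 460 was -0.30 in 3 µg/kg replicate 2. In its group, 10 µg/kg replicate 1 was the highest liver in 57.8% of the 277 genes and the lowest in 58.7% of the 460. For 3 µg/kg replicate 2 the share lowest in its group was 57.6% of the 460. Over the 460 genes, such shares were thus not particular to vehicle replicate 1. The libraries numbered 1 did not share this at every dose, since 3 µg/kg replicate 1 lay at -0.12 and 0.23 over the 2 sets.

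**Figure D5:**
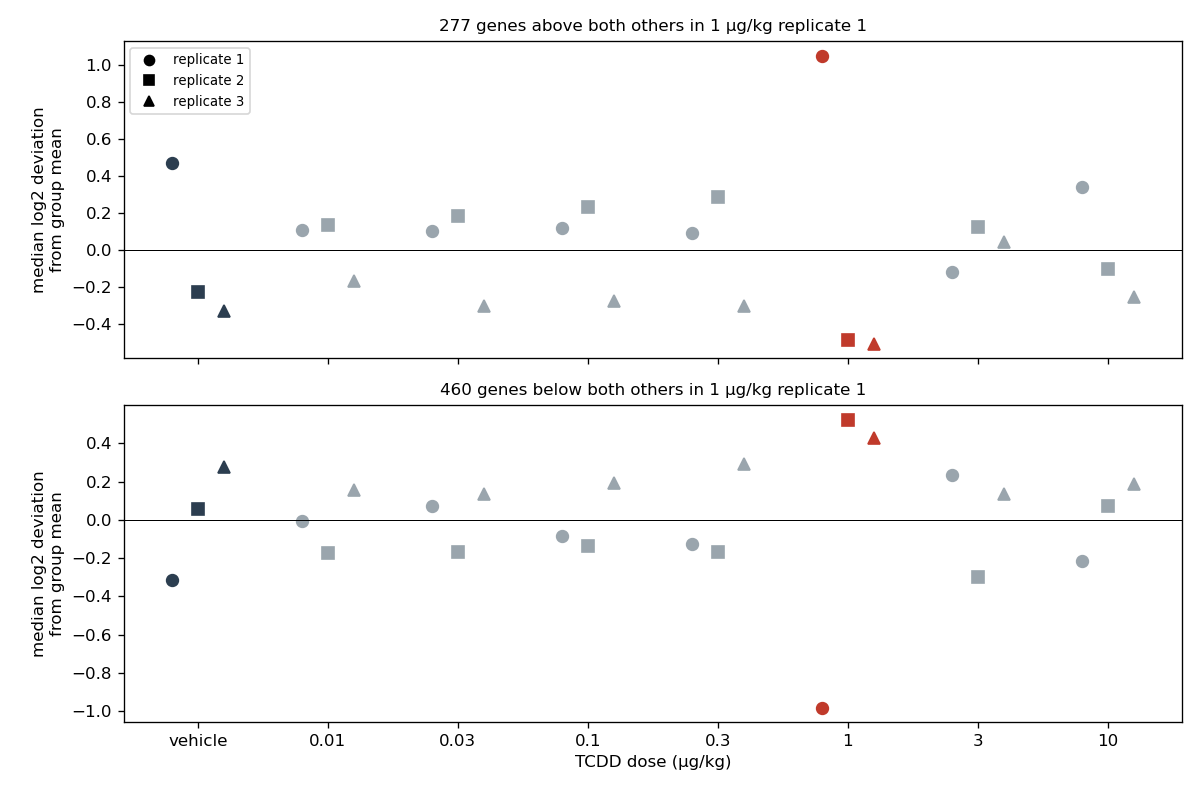
Points give, for each library, the median log2 CPM deviation from its group mean over the 277 genes (upper) and the 460 genes (lower) in which 1 µg/kg replicate 1 (red circles) lay over 2-fold from both others; that choice fixes the 3 red points. Vehicle replicate 1 (dark blue circles), which the choice did not use, lies at 0.47 and -0.31.

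Most of the genes with the widest gaps had this form. Among genes with a mean of at least 5 CPM at 1 µg/kg, the 8 furthest above and the 8 furthest below both other livers were all among the 1250 most variable genes. Vehicle replicate 1 was above both other vehicle livers in 8 of the first 8, and below both in 7 of the second 8. The first of the second 8 is among those 7 but had 1 count in each vehicle library, so library size alone set its order there. In the sixth of the first 8, vehicle replicate 1 held 7.64 CPM, against 7.46 CPM in vehicle replicate 2. The most abundant of them held 1775 CPM in 1 µg/kg replicate 1 and 143 and 143 CPM in replicates 2 and 3, against 875 CPM in vehicle replicate 1 and 64.3 and 96.6 CPM in vehicle replicates 2 and 3. Another held 1.23 CPM in 1 µg/kg replicate 1 and 36.3 and 36.2 CPM in replicates 2 and 3, against 1.39 CPM in vehicle replicate 1 and 68.2 and 46.5 CPM in vehicle replicates 2 and 3. In both genes each liver numbered 1 differed from its companions by more than the groups differed from each other.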

How the data were processed

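Per the labels' protocols, total liver RNA was isolated with TRIzol and libraries made with an Illumina TruSeq RNA kit. The authors deposited 1 table for each library, holding raw counts for each Ensembl ID. Per the submitters' processing notes, TopHat 1.4.1, HTSeq 0.6.1, DESeq, FastQC 0.11.2, SAMtools 0.1.2 and cutadapt 1.4.1 were used. The build, annotation and strand setting are not given in the sources used here, and reads of overlapping, antisense or near-identical genes are uncertain. The 5 HTSeq summary rows, 36.3% to 41.1% of a table's total in these 6 libraries, were left out.

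Genes were kept by filterByExpr over 8 groups (12496 of 18198 IDs with a count), scaled by TMM and fitted with edgeR 4.0.16 (R 4.3.3) glmQLFit over all 24 libraries, with 16 residual degrees of freedom. Contrasts used glmQLFTest with Benjamini-Hochberg adjustment. The SE is the log2 fold change divided by the square root of F. Log2 CPM used a prior count of 2. The fit was tested on simulated data. The comparison of 3 with 0.3 µg/kg was added after the data were seen.

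IDs named were the 2 largest rises and falls called at 1 µg/kg whose higher group averaged 5 CPM or more without overlap between groups, since 0 of 26404 IDs matched a symbol; the 13 pathway and 11 marker lists could therefore not be applied, and no promoter sequence could be assigned. Members and lists were chosen with earlier results of these data known. Alternatives were RLE scaling, DESeq2 1.42.0, other low-count filters, a replicate block, the 2 groups alone and leaving out each library.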

Additional observations from a re-analysis of the deposited data

How the results depend on the processing

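The 264 calls at 1 µg/kg were 625 with DESeq2, which called 263 of them again, and 54 when only these 2 groups were fitted, which called 44 of them again. RLE scaling, both other low-count filters and the omission of both libraries numbered 1 kept the count between 197 and 308. Leaving out 1 library at a time gave 66 to 543. DESeq2 called 32 genes for 1 against 0.3 µg/kg and 100 for 3 against 1 µg/kg, where the 2 groups alone gave 12; omission of single libraries gave 4 to 13 and 8 to 47. Rises were 80.3% of the calls at 1 µg/kg against vehicle and 69.9% with DESeq2; without 1 library at a time they were 73.3% (vehicle replicate 3) to 94.1% (1 µg/kg replicate 2). The cause of these differences was not tested. ENSRNOG00000019500 and ENSRNOG00000026679 were called under all 13 alternatives, and each of the 2 IDs that fell under 8. The distance of replicate 1 from its companions was 0.620 to 0.686 under another prior count, filter or scaling.

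With the replicate number as a block, 348 genes were called, 260 of them among the 264. The numbers were not taken as pairs: deviations of same-numbered libraries correlated at 0.38, 0.09 and 0.19 for numbers 1, 2 and 3, and replicate 2 of 1 µg/kg correlated better with vehicle replicate 3, at 0.23. In the shallowest vehicle library 3 counts are 0.254 CPM, which leaves little room to measure falls of genes below 1 CPM.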

Other observations

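The gene with the widest gap between replicate 1 and its companions, singled out after its values were seen, was either near 0 or well detected in nearly every liver. It held 1, 352 and 353 counts in replicates 1, 2 and 3 of 1 µg/kg, against 1 count in each vehicle library. Among the 21 libraries outside 1 µg/kg, vehicle included, 13 lay below 1 CPM, 7 at 10 CPM or more, up to 17.8 CPM, and 1 between, at 9.67 CPM. Levels of both kinds occurred within 0.03, 0.1 and 3 µg/kg.

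There were 4 IDs with no count in any vehicle library and at least 3 counts in each 1 µg/kg library, of which 1 was called, and none with the opposite pattern.

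The share of alignments outside annotated genes, which enter no gene count, was 13.3% to 14.9% at 1 µg/kg and 14.9% to 17.7% in vehicle, with means of 14.2% ± 0.792 and 15.8% ± 1.60 (SD, n = 3 each; exact two-sided permutation p = 0.10, the smallest that 3 against 3 allows). The share that was not unique averaged 22.4% ± 1.13 at 1 µg/kg and 24.1% ± 0.797 in vehicle (SD, n = 3 each; exact two-sided permutation p = 0.20).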
